A study of Mus musculus with 7 samples.

Results

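The short-chain collagens are *Col8a1*, *Col8a2* and *Col10a1*. They were examined with *C1qtnf5*, a secreted protein that carries the same C-terminal C1q domain, in RNA of mouse aorta from *Mmp19* knockout mice (KO, 3 libraries) and wild-type mice (WT, 4 libraries). The 4 genes were found by symbol among the 47729 Ensembl identifiers of the deposited count table, and all 4 were present. They were chosen because *Col10a1* and *Col8a1* had been seen to be higher in every KO library, so every KO against WT value of a member below is a description and carries no p-value. The design text writes the knockout genotype as Mmp19-/-. The sources used here give neither the allele nor the strain, age and sex of the mice, and name no treatment. Separate mice are not stated for the libraries, so the p-values of other genes measure the spread between these 7 libraries, which may be technical.

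Collagens VIII and X form sheet-like networks in place of the long fibrils of collagens I and III. Each chain has a short collagenous stretch followed by a globular C1q-like domain, through which chains assemble into trimers. Collagen VIII is made by endothelial and smooth muscle cells, increases in injured arteries, and forms the lattice of Descemet's membrane in the cornea. Collagen X is the matrix product of hypertrophic chondrocytes in the growth plate, where cartilage is replaced by bone. C1qtnf5, also called CTRP5, is best known from the retinal pigment epithelium, where human mutations cause a late-onset retinal degeneration.

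Estimated counts summed to between 71061475 and 76926790 in KO and between 68151472 and 75132809 in WT. All 4 members passed the filter on low counts, which left 19188 tested genes. *Col10a1* reached the filter's level in 3 of the 4 WT libraries as well as in all 3 KO libraries, so it would have been kept without its KO values. The targeted gene, *Mmp19*, was still counted, at 25.5, 11.95 and 15.9 CPM (counts scaled to library size, with TMM factors) in KO, against 24.8, 24.8, 20.7 and 34.7 CPM in WT. These ranges overlap, and the difference, -0.56 on the log2 scale (SE 0.29), did not pass edgeR's quasi-likelihood test (adjusted p = 0.368). A count for the whole gene does not tell deleted from remaining exons, so this value does not check the labels. *Col10a1* and *Mmp19* both lie on chromosome 10, 94.4 Mb apart, and any link of this to the level of *Col10a1* was not tested.

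The members share a gene structure that other collagens lack. In GENCODE M21 on GRCm38, *Col8a1* (ENSMUSG00000068196, chr16:57624258-57754737, minus strand), *Col8a2* (ENSMUSG00000056174, chr4:126286793-126314330, plus strand) and *Col10a1* (ENSMUSG00000039462, chr10:34389981-34397085, plus strand) have 2 coding exons each. Their largest coding exon holds 85.3%, 91.4% and 92.5% of the coding bases, in that order. *C1qtnf5* (ENSMUSG00000079592, chr9:44107245-44109187, plus strand) also has 2 coding exons, with 70.6% of the coding bases in the larger. Over the 41 other collagen chains the number of coding exons ran from 13 (*Col26a1*) to 118, with a median of 47. Their largest coding exon held between 2.28% and 31.4% of the coding bases. The members thus stand apart from every other chain on both measures. The coding sequences of the short-chain collagens are of like size, at 2232, 2097 and 2040 bases for *Col8a1*, *Col8a2* and *Col10a1*, and that of *C1qtnf5* is 729 bases.

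**Figure D1:**
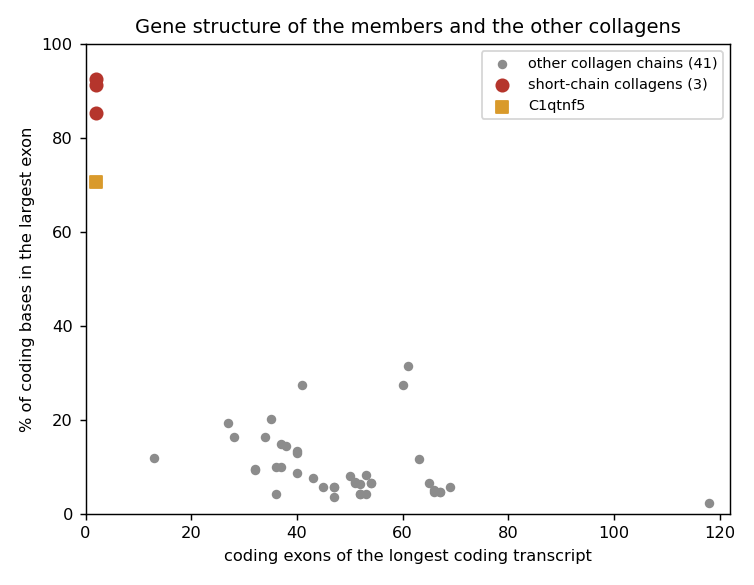
Number of coding exons (horizontal axis) against the percent of coding bases in the largest exon (vertical axis), in the longest coding transcript of each gene. The 3 short-chain collagens and *C1qtnf5* sit at 2 coding exons in the upper left, and the 41 other chains have 13 or more exons and at most 31.4% in the largest.

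The start regions of the 3 short-chain collagens are shown because 2 of these genes, *Col8a1* and *Col10a1*, differ in kind there although both are higher in KO. The sequences are the 250 bases before the RefSeq start (GRCm38.p6), read 5′ to 3′ on the gene's strand. Capitals mark TATAAA on the printed strand or its complement, then likewise GGGCGG, which reads CCGCCC on the other strand, and also TGTGGT.

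*Col8a1*, chr16:57754738-57754987, minus strand: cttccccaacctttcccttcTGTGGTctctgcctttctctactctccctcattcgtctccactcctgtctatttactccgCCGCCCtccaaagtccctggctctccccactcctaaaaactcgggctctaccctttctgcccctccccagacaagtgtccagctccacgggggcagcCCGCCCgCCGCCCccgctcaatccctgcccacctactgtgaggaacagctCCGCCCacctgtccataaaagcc

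*Col8a2*, chr4:126286544-126286793, plus strand: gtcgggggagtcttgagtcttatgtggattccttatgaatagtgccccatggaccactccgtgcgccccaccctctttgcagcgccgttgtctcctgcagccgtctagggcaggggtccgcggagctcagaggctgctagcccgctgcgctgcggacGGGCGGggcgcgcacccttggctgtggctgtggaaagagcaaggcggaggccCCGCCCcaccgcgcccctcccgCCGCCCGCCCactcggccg

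*Col10a1*, chr10:34389731-34389980, plus strand: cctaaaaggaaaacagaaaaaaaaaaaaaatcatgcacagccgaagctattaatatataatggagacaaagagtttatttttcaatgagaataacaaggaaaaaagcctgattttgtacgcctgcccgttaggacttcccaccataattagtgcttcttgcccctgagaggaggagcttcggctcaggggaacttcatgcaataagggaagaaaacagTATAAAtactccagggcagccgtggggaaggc

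The *Col10a1* window has TATAAA, the core of the TATA box, 32 bases before the start, and no GGGCGG, the GC box that Sp-family factors recognise. The *Col8a1* and *Col8a2* windows have no TATAAA and 4 GGGCGG matches each, of which a pair in *Col8a2* overlap. TGTGGT, a core of the RUNX site, occurs in *Col8a1* alone, 230 bases before the start. G and C make up 60.8%, 70.0% and 41.6% of the *Col8a1*, *Col8a2* and *Col10a1* windows, where the median over all windows is 52.4%. Both strands were searched in all 32851 RefSeq windows of this length. TATAAA was found in 12.4% of them, GGGCGG in 32.7% and TGTGGT in 14.0%. TGANTCA, the AP-1 site (6.75% of windows), and CTTTGA, a TCF/LEF core (13.8%), were also searched and do not occur in the 3 windows. A match is a string of letters and not a known site, and the motifs were chosen after their matches had been seen. The RefSeq window of *C1qtnf5* is the window of *Mfrp*, a membrane protein of the retinal pigment epithelium, whose transcript also carries the *C1qtnf5* reading frame. GENCODE places the *C1qtnf5* start 5475 bases further downstream.

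*Col8a1*, the main chain of vascular collagen VIII, was the most abundant member in KO aorta. Its levels were 440, 218 and 363 CPM in KO replicates 1, 2 and 3, against 24.6, 14.5, 25.1 and 32.3 CPM in WT replicates 1 to 4. Every KO library lay far above every WT library, KO replicate 2 being the lowest of the 3. The average was 340 ± 113 CPM in KO, against 24.1 ± 7.29 CPM in WT (SD, n = 3 and 4), a ratio of 14.1. The log2 fold change was 3.82 (SE 0.33). By mean CPM the gene ranked 313 among all genes in KO and 6834 in WT.

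*Col8a2*, the other collagen VIII chain, was higher in the same libraries but at a much lower level. It read 28.6, 12.1 and 16.3 CPM in KO, against 7.82, 2.86, 2.84 and 4.20 CPM in WT. The groups did not overlap, although WT replicate 1 came near KO replicate 2. The average was 19.03 ± 8.57 CPM in KO, against 4.43 ± 2.35 CPM in WT (SD, n = 3 and 4), and the log2 fold change was 2.10 (SE 0.45). Without KO replicate 1 this value was 1.68, and without WT replicate 1 it was 2.57.

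*Col10a1*, the collagen of hypertrophic cartilage, was close to the detection floor in WT and well expressed in KO. It read 114, 32.7 and 78.1 CPM in KO, against 0.486, 0.239, 0.115 and 0.217 CPM in WT. In counts as deposited these are 9388, 2288 and 6035 in KO, and 31, 17, 8 and 16 in WT. Low values in the table pile up at multiples of 4, so the WT counts may stand for fewer reads than they name. The average was 75.0 ± 40.8 CPM in KO, against 0.264 ± 0.157 CPM in WT (SD, n = 3 and 4), and the log2 fold change was 8.15 (SE 0.62). Its size rests on WT values of a few counts: leaving out KO replicate 1 gave 7.71 and leaving out WT replicate 1 gave 8.65. Among the 19188 tested genes 5 had a larger log2 fold change.

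*C1qtnf5* had the smallest and the most even difference. It read 32.8, 30.7 and 33.4 CPM in KO, against 17.9, 13.7, 13.6 and 17.6 CPM in WT. All KO libraries were alike, and the lowest of them was well above the highest WT library. The average was 32.3 ± 1.45 CPM in KO, against 15.7 ± 2.35 CPM in WT (SD, n = 3 and 4), a ratio of 2.05, and the log2 fold change was 1.04 (SE 0.14). Its SD was 4.48% of the mean in KO, where those of *Col8a1*, *Col8a2* and *Col10a1* were 33.1%, 45.0% and 54.4%.

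**Figure D2:**
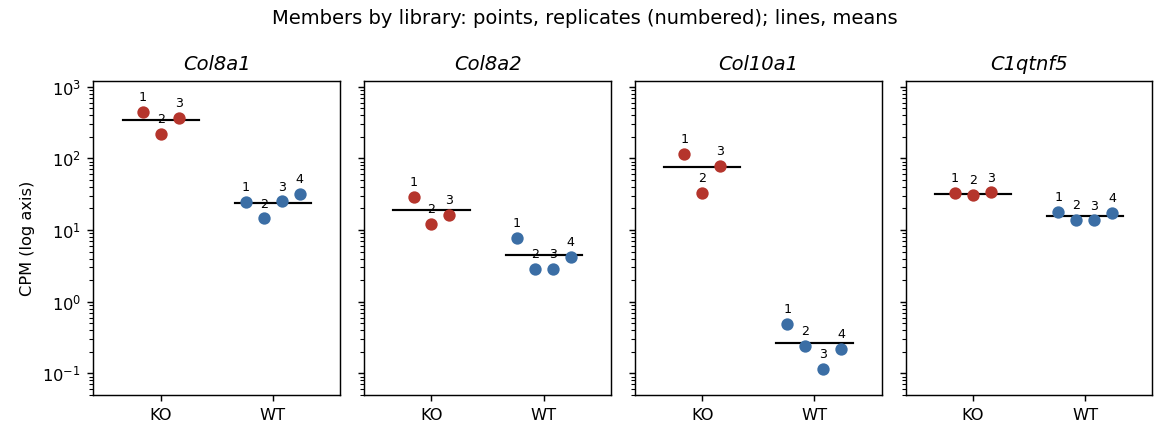
CPM of each member in every library on a log axis, with KO left of WT. Points are libraries with their replicate numbers and lines are group means. In each panel the 3 KO points lie above all 4 WT points, from a ratio of 2.05 for *C1qtnf5* to levels of 32.7 CPM or more against 0.486 CPM or less for *Col10a1*.

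All 4 members thus had every KO library above every WT library, as did 8.17% of the tested genes, while 8.56% had every KO library below every WT library. edgeR's quasi-likelihood test called 3 genes at an adjusted p under 0.05, which is 0.0156% of the tested genes, all of them higher in KO. *Col8a1* and *Col10a1* are 2 of these, and nothing is read from that count, because the genes were chosen from this contrast. The called gene outside the members is *Tnfrsf11b*, which encodes osteoprotegerin, a decoy receptor that restrains osteoclast formation. It read 74.1, 53.7 and 45.7 CPM in KO, against 9.53, 9.69, 7.83 and 13.0 CPM in WT (log2 fold change 2.53, SE 0.23, edgeR adjusted p = 0.0386). That call was lost without any 1 of the libraries other than KO replicate 2, with adjusted p up to 0.273 over the alternatives.

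The 3 KO libraries did not differ in the same way for each member. *Col8a1*, *Col8a2* and *Col10a1* all ran from KO replicate 1 through replicate 3 down to replicate 2, an order that 21.8% of the tested genes had. *C1qtnf5* was highest in KO replicate 3. In WT, *Col8a2*, *Col10a1* and *C1qtnf5* were highest in replicate 1, and *Col8a1* was highest in replicate 4.

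Levels of different genes were compared per length, as RPKM over the union of annotated exons. In every WT library the order from high to low was *C1qtnf5*, *Col8a1*, *Col8a2*, *Col10a1*, with means of 9.89 ± 1.48, 3.08 ± 0.93, 0.986 ± 0.523 and 0.0844 ± 0.0503 RPKM (SD, n = 4). In every KO library *Col8a1* was highest and *Col8a2* lowest, with means of 43.5 ± 14.4 and 4.24 ± 1.91 RPKM (SD, n = 3). *Col10a1* and *C1qtnf5*, at 24.0 ± 13.0 and 20.3 ± 0.911 RPKM in KO, did not differ beyond their spread. *Col10a1* was above *C1qtnf5* in KO replicates 1 and 3 and below it in KO replicate 2. The order of the means was the same with the length of the longest transcript, which raised *Col8a1* to 66.7 RPKM in KO and 4.72 RPKM in WT.

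The balance of the collagen VIII chains differed between the groups. The ratio of *Col8a1* to *Col8a2* in RPKM was 8.82, 10.3 and 12.7 in KO, against 1.80, 2.92, 5.06 and 4.41 in WT, so that no KO library reached down to the WT range. The ratio of *Col10a1* to *Col8a2* was 5.72, 3.86 and 6.86 in KO, against 0.0891, 0.120, 0.0579 and 0.0743 in WT. *Col10a1* thus stood above the minor collagen VIII chain in each KO library and below it in each WT library. These ratios come from the contrast that chose the members and have no test.

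The 3 short-chain collagens stayed a small part of all collagen RNA. Of the summed RPKM of 44 collagen chains they held 2.00%, 1.12% and 2.39% in KO, against 0.103%, 0.0915%, 0.123% and 0.140% in WT. *Col8a1* ranked 15 of 44 in KO and 22 in WT, *Col10a1* 16 in KO and 38 in WT, and *Col8a2* 23 in KO and 28 in WT. *Col1a1*, a chain of fibrillar collagen I, averaged 994 RPKM in KO and 742 RPKM in WT.

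**Figure D3:**
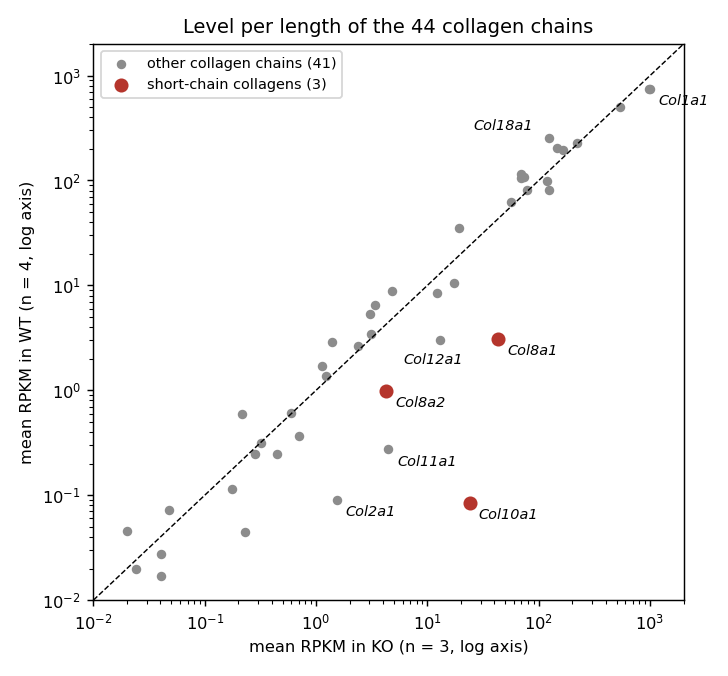
Mean RPKM of 44 collagen chains in KO (horizontal log axis, n = 3) against WT (vertical log axis, n = 4), with equal levels on the dashed line. *Col10a1* (24.0 against 0.0844 RPKM) and *Col8a1* (43.5 against 3.08 RPKM) lie far to the right of the line.

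The other collagen chains did not share one direction. Of the 41 chains 40 were tested, 18 with a positive and 22 with a negative log2 fold change and a median of -0.06 (-0.23 without KO replicate 1 and 0.10 without WT replicate 1), where the median over all tested genes was -0.03. edgeR called 0 of them, with 7 higher and 5 lower at an unadjusted p under 0.05, a level that 9.92% of all genes reached upward and 7.27% downward. DESeq2 called 3 higher and 1 lower (5.32% and 3.05% of all genes, together 8.37%), and limma-voom called 0. *Col2a1*, the fibrillar collagen of cartilage, read 27.5, 6.81 and 8.08 CPM in KO, against 1.22, 0.225, 0.545 and 1.33 CPM in WT (log2 fold change 4.09, SE 0.75, edgeR adjusted p = 0.165). *Col11a1*, which initiates cartilage fibrils, read 117, 12.7 and 41.3 CPM in KO, against 3.23, 1.24, 8.05 and 1.44 CPM in WT (edgeR adjusted p = 0.170). *Col12a1*, a fibril-associated collagen, averaged 196 ± 171 CPM in KO against 45.8 ± 10.7 CPM in WT, and *Col18a1*, a basement membrane collagen that yields endostatin, 873 ± 421 CPM in KO against 1800.2 ± 398 CPM in WT (SD, n = 3 and 4). Groups did not overlap for these 4 chains, although for *Col18a1* the nearest libraries, at 1346.56 CPM in KO against 1346.85 CPM in WT, were almost equal. Of the 40 tested chains 5 had every KO library above WT and 4 had every KO library below. Over all tested genes the shares were 8.17% and 8.56%. None of the 4 passed edgeR's correction.

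The ratio of *Col10a1* to *Col2a1* sets the hypertrophic against the general cartilage collagen. In RPKM it was 12.3, 14.2 and 28.6 in KO, against 1.17, 3.14, 0.622 and 0.482 in WT. Like the ratios above, it draws on the contrast that chose *Col10a1* and has no test. In WT it rests on 8 to 31 counts of *Col10a1* and on *Col2a1* at 0.225 to 1.33 CPM.

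Genes of hypertrophic cartilage and the factors that act on *Col10a1* were mixed. Of 25 listed genes 21 were tested, 9 with a positive and 12 with a negative log2 fold change and a median of -0.09, which ran from -0.20 without KO replicate 2 to 0.10 without KO replicate 1. edgeR called 0, with 7 higher and 2 lower at an unadjusted p under 0.05, DESeq2 called 5 higher and 1 lower, and limma-voom called 0. *Spp1* (osteopontin) had the smallest edgeR p on the list, at 1029, 41.0 and 143 CPM in KO, against 4.91, 2.45, 3.87 and 1.67 CPM in WT (log2 fold change 6.97, SE 1.15, edgeR adjusted p = 0.165). *Runx2*, a transcription factor of bone and hypertrophic cartilage that acts on *Col10a1*, read 18.3, 4.75 and 6.85 CPM in KO, against 1.91, 1.55, 1.43 and 2.05 CPM in WT (log2 fold change 2.52, SE 0.47, edgeR adjusted p = 0.165). *Runx3*, a related factor, read 11.7, 1.64 and 4.22 CPM in KO, against 1.32, 1.22, 0.373 and 0.258 CPM in WT (edgeR adjusted p = 0.185). *Mmp13*, the collagenase of hypertrophic cartilage, was low throughout, at 3.56, 0.857 and 4.78 CPM in KO, against 0.470, 0.253, 0.473 and 0.462 CPM in WT (edgeR adjusted p = 0.165). *Pth1r*, the receptor that restrains hypertrophy, averaged 20.3 ± 5.58 CPM in KO against 12.1 ± 0.924 CPM in WT (SD, n = 3 and 4). KO lay above WT without overlap for these 5 genes, and below WT for 3 others of the 21 tested. Over all tested genes the shares were 8.17% above and 8.56% below.

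Some other genes of that programme were not higher. *Ihh*, the hedgehog ligand of prehypertrophic cartilage, read 0.401, 3.54 and 2.41 CPM in KO, against 7.04, 6.60, 6.31 and 8.01 CPM in WT (edgeR adjusted p = 0.234), so that KO lay below WT. *Mef2c*, which drives chondrocyte hypertrophy, overlapped between the groups, at 73.7 ± 27.0 CPM in KO against 74.0 ± 21.9 CPM in WT (SD, n = 3 and 4). *Sp7*, the osteoblast factor osterix, did not exceed 0.700 CPM in KO or 0.574 CPM in WT, and *Panx3*, a channel of hypertrophic cartilage, did not exceed 0.0972 CPM in KO or 0.402 CPM in WT. *Runx3*, *Ihh*, *Mef2c*, *Sp7* and *Panx3* were picked for mention with their values in view.

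Cartilage matrix genes were uneven. Of 20 genes 18 were tested, 12 with a positive log2 fold change and a median of 0.65, which ran from 0.20 without KO replicate 1 to 0.95 without KO replicate 3. edgeR called 0, with 7 higher and 0 lower at an unadjusted p under 0.05, DESeq2 called 6 higher, and limma-voom called 0. Of the 18 tested 5 had every KO library above WT and 0 had every KO library below, where 8.17% and 8.56% of all tested genes did. The summed level of the list was 911, 513 and 458 CPM in KO, against 524, 275, 339 and 394 CPM in WT, so that the groups overlapped. *Acan*, the large proteoglycan aggrecan, read 132, 88.9 and 76.4 CPM in KO, against 49.5, 22.2, 29.2 and 35.2 CPM in WT (edgeR adjusted p = 0.165). Without KO replicate 2 its edgeR adjusted p was 0.0478, in a fit that called 1029 genes. *Epyc*, the small proteoglycan epiphycan, averaged 8.29 ± 1.71 CPM in KO against 2.92 ± 1.09 CPM in WT (SD, n = 3 and 4). *Prg4*, the lubricin of joint surfaces, read 319, 18.8 and 40.1 CPM in KO, against 23.7, 7.34, 3.54 and 13.1 CPM in WT, and *Comp*, a cartilage oligomeric matrix protein, read 160, 71.1 and 48.8 CPM in KO, against 61.0, 24.5, 26.4 and 41.9 CPM in WT. Both overlapped between the groups (edgeR adjusted p = 0.195 and 0.233). *Matn3*, a cartilage matrilin, was low but without overlap, at 2.69, 0.857 and 1.76 CPM in KO, against 0.784, 0.451, 0.100 and 0.367 CPM in WT (edgeR adjusted p = 0.207). On the same list *Matn1*, *Snorc* and *Ucma* were at or near 0 in all libraries, with highest values of 0.0972, 0.186 and 0.352 CPM in KO and of 0, 0.186 and 0.376 CPM in WT. The part of cartilage tissue in the level of *Col10a1* was not tested.

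Across the wider C1q-domain family the directions were nearly even. Of 26 other genes 21 were tested, 11 with a positive and 10 with a negative log2 fold change and a median of 0.01. Of the 21 tested 5 had every KO library above WT and 1 had every KO library below, where 8.17% and 8.56% of all tested genes did. edgeR called 0, with 5 higher and 0 lower at an unadjusted p under 0.05, DESeq2 called 4 higher, and limma-voom called 0. The highest of these were the complement subunits *C1qa*, *C1qb* and *C1qc*, which macrophages make. *C1qb* read 243, 69.1 and 125 CPM in KO, against 41.0, 34.8, 24.7 and 43.9 CPM in WT (log2 fold change 2.01, SE 0.41, edgeR adjusted p = 0.165). *C1qtnf3*, a secreted relative of *C1qtnf5* known from cartilage, read 28.6, 17.1 and 41.9 CPM in KO, against 11.1, 8.73, 13.8 and 15.1 CPM in WT (log2 fold change 1.26, SE 0.32, edgeR adjusted p = 0.174). Neither passed edgeR's correction over all genes, while both passed that of DESeq2 (DESeq2 adjusted p = 0.000156 for *C1qb* and 0.00676 for *C1qtnf3*). *Adipoq*, adiponectin, overlapped between the groups, at 315 ± 103 CPM in KO against 309 ± 92.8 CPM in WT (SD, n = 3 and 4).

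Among collagen receptors, *Itga11* stood out. It encodes integrin α11, a receptor for fibrillar collagen on fibroblasts, and read 37.9, 29.9 and 26.8 CPM in KO, against 10.8, 9.83, 9.04 and 12.3 CPM in WT. Every KO library was above every WT library. Its log2 fold change of 1.59 (SE 0.17) narrowly missed edgeR's correction (adjusted p = 0.0692) and passed it with limma-voom, with DESeq2, with the stricter filter, with counts divided by 4 and without KO replicate 2. Of 11 receptors all were tested, 6 with a positive and 5 with a negative log2 fold change and a median of 0.43, which ran from 0.07 without WT replicate 1 to 0.78 without KO replicate 2. edgeR called 0, with 4 higher and 2 lower at an unadjusted p under 0.05, DESeq2 called 2 higher and 1 lower, and limma-voom called *Itga11* alone. *Ddr1*, a receptor tyrosine kinase that binds collagen, read 48.2, 51.2 and 48.0 CPM in KO, against 71.6, 55.5, 74.3 and 75.8 CPM in WT (log2 fold change -0.50, SE 0.13, edgeR adjusted p = 0.175). *Ddr2*, for which collagen X is a ligand, read 192, 255 and 198 CPM in KO, against 250 to 315 CPM in WT, so that the groups overlapped (edgeR adjusted p = 0.244).

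For the 24 collagen-folding genes the median was 0.23 on the log2 scale, with 19 positive, and it ran from 0.06 without KO replicate 1 to 0.41 without KO replicate 2. edgeR called 0, with 5 higher and 0 lower at an unadjusted p under 0.05, DESeq2 called 2 higher, and limma-voom called 0. *P4ha3*, a subunit of prolyl hydroxylase, read 25.4, 4.51 and 10.2 CPM in KO, against 1.96, 1.68, 2.04 and 3.15 CPM in WT (edgeR adjusted p = 0.166). *Hspa5*, the chaperone BiP, averaged 964 ± 218 CPM in KO against 559 ± 81.7 CPM in WT (SD, n = 3 and 4, edgeR adjusted p = 0.179). The groups did not overlap for either gene. Of the 24 genes 3 had every KO library above WT and 0 had every KO library below, where 8.17% and 8.56% of all tested genes did.

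Genes whose annotation overlaps a member were read beside it. *Col10a1* lies within the span of *Nt5dc1* on the opposite strand, and 18 of the 3130 exon bases of *Col10a1* are also exon of *Nt5dc1*. *Nt5dc1* read 9.75, 12.6 and 14.4 CPM in KO, against 13.5, 13.6, 13.2 and 12.9 CPM in WT, so that the groups overlapped (log2 fold change -0.12, SE 0.16, edgeR adjusted p = 0.741, exact 2-sided permutation p = 0.457). All 1589 exon bases of *C1qtnf5* are also exon of *Mfrp*, so the authors' counting decides which of them a read goes to. *Mfrp* read 0.656, 2.17 and 1.23 CPM in KO, against 0.674, 0.310, 0.746 and 0.991 CPM in WT (edgeR adjusted p = 0.381, exact 2-sided permutation p = 0.200). Its counts were 152 or less in KO and 73 or less in WT, where *C1qtnf5* had 2147 or more in KO and 951 or more in WT. On the opposite strand, *Gm20444* had 13 counts or less in any library, and *Rnf26* shares no exon base with *C1qtnf5* (edgeR adjusted p = 0.967). Whether the counting used strand is unknown here. The annotation lists no counted gene that overlaps *Col8a1* or *Col8a2*.

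The genes most like *Col8a1* and *Col10a1* over the 7 libraries were sought among 13510 tested genes with a mean of at least 2 CPM, by the root mean square difference of their centred log2 CPM. This measure includes the KO against WT difference by which the members were chosen. It thus returns genes with a difference of like size, and nothing further is read from the likeness. Nearest to *Col8a1* was *Cthrc1*, a secreted glycoprotein of injured arteries, at a difference of 0.44. It read 132, 30.6 and 74.3 CPM in KO, against 7.30, 4.98, 4.23 and 7.79 CPM in WT. The next were *Col2a1*, the leukocyte receptor *Cd244a*, the macrophage gene *Ms4a7* and the chemokine *Ccl12*, at differences of 0.63 to 0.70. *Col2a1*, *Cd244a* and *Ccl12* reached a mean of 2 CPM only through KO, at 1.33 CPM or less in every WT library. *Col8a2* ranked 70 and *C1qtnf5* 553. Nearest to *Col10a1* were *Trem1*, a receptor of myeloid cells, and *Pkp1*, a desmosomal plakophilin, at differences of 1.24 and 1.27. *Pkp1* read 12.4, 3.21 and 8.16 CPM in KO, against 0.235, 0.282, 0 and 0.0679 CPM in WT. *Spp1* (osteopontin), *Cemip*, which degrades hyaluronan, and *Ms4a4c* came next, and *Col8a1* ranked 24. *Trem1*, *Pkp1*, *Cemip* and *Ms4a4c* also reached a mean of 2 CPM only through KO, at 0.282 CPM or less in every WT library. With a library left out, between 1 and 5 of the 5 genes nearest to *Col8a1* stayed among the nearest 5, the lowest number without WT replicate 2. For *Col10a1* between 2 and 5 stayed.

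Cell types of the vessel wall and of adjoining tissue also differed between the libraries, and in RNA of whole aorta fewer cells of a type and less RNA per cell cannot be told apart. The contractile smooth muscle list summed to 5288, 18122 and 9845 CPM in KO, against 23387 to 26502 CPM in WT. Of its 23 genes 21 were on the negative side, and the median log2 fold change was -1.02; edgeR called 0, with 2 higher and 17 lower at an unadjusted p under 0.05, and DESeq2 called 2 higher and 13 lower. Of the 23 genes 0 had every KO library above WT and 16 had every KO library below, where 8.17% and 8.56% of all tested genes did. *Myh11*, smooth muscle myosin, was present in all libraries, at 621 to 3079 CPM in KO and 4433 to 5632 CPM in WT. The modulated smooth muscle list, which leaves out the members, had a median of 0.73 over 25 genes, 19 of them positive, and summed to between 16545 and 20983 CPM in KO and between 13739 and 22263 CPM in WT. edgeR called 1 of these, *Tnfrsf11b*, and DESeq2 called 12 higher. Of the 25 genes 12 had every KO library above WT and 0 had every KO library below. The lists were chosen with earlier results of these libraries known.

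Macrophage genes were higher in the KO libraries, most of all in the one where *Col8a1*, *Col8a2* and *Col10a1* were highest. The list of 24 genes summed to 6282, 1048 and 1924 CPM in KO, against 504 to 799 CPM in WT, and 23 of them were on the positive side, with a median log2 fold change of 2.43 that was 1.42 without KO replicate 1. edgeR called 0 of them, with 21 higher at an unadjusted p under 0.05, and DESeq2 called 20 higher. Of the 24 genes 20 had every KO library above WT and 0 had every KO library below, where 8.17% and 8.56% of all tested genes did. *Cd68* read 131, 11.4 and 26.9 CPM in KO, against 5.39 to 8.40 CPM in WT. The KO libraries ranked for this list as they did for *Col8a1*, *Col8a2* and *Col10a1*, an order that 21.8% of the tested genes had. It was not particular to macrophages. The sums of the C1q-domain and hypertrophic cartilage lists had it too. So did the medians, but not the sums, of the collagen receptor and modulated smooth muscle lists. The contractile smooth muscle sums had the reverse order. The macrophage sum was 5.99 times as high in KO replicate 1 as in KO replicate 2. Between the same libraries *Col8a1* was 2.02 times, *Col8a2* 2.36 times, *Col10a1* 3.49 times and *C1qtnf5* 1.07 times as high. The part of macrophages in the levels of the members was not tested.

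The striated muscle lists were uneven among the KO libraries. The heart muscle list of 15 genes summed to 941, 1552 and 47.0 CPM in KO, against 94.5 to 178 CPM in WT. KO replicate 3 was below every WT library for this list. The median of the skeletal muscle list stood 4.39 log2 units above the WT mean in KO replicate 3, and between -0.25 and -0.22 in the other KO libraries. *Acta1*, skeletal muscle actin, read 8.61, 0.857 and 61.6 CPM in KO, against 0.454, 0.451, 0.832 and 1.85 CPM in WT. The adventitial fibroblast list had a median of -0.10 over 22 genes, which ran from -0.18 without KO replicate 2 to 0.00 without WT replicate 1. The endothelial list had a median of -0.15 over 19 genes, which ran from -0.25 without KO replicate 3 to -0.02 without WT replicate 2. edgeR called 0 genes on the heart, skeletal, fibroblast, endothelial and adipocyte lists. At an unadjusted p under 0.05 it had 11, 7, 4, 0 and 0 higher and 0, 1, 4, 0 and 0 lower, in that order of lists, and DESeq2 called 6, 3, 2, 0 and 0 higher and 0, 1, 2, 0 and 0 lower. limma-voom called 1 gene on these lists, *Ckm* on the skeletal muscle list. The part of these tissues in the levels of the members was not tested.

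**Figure D4:**
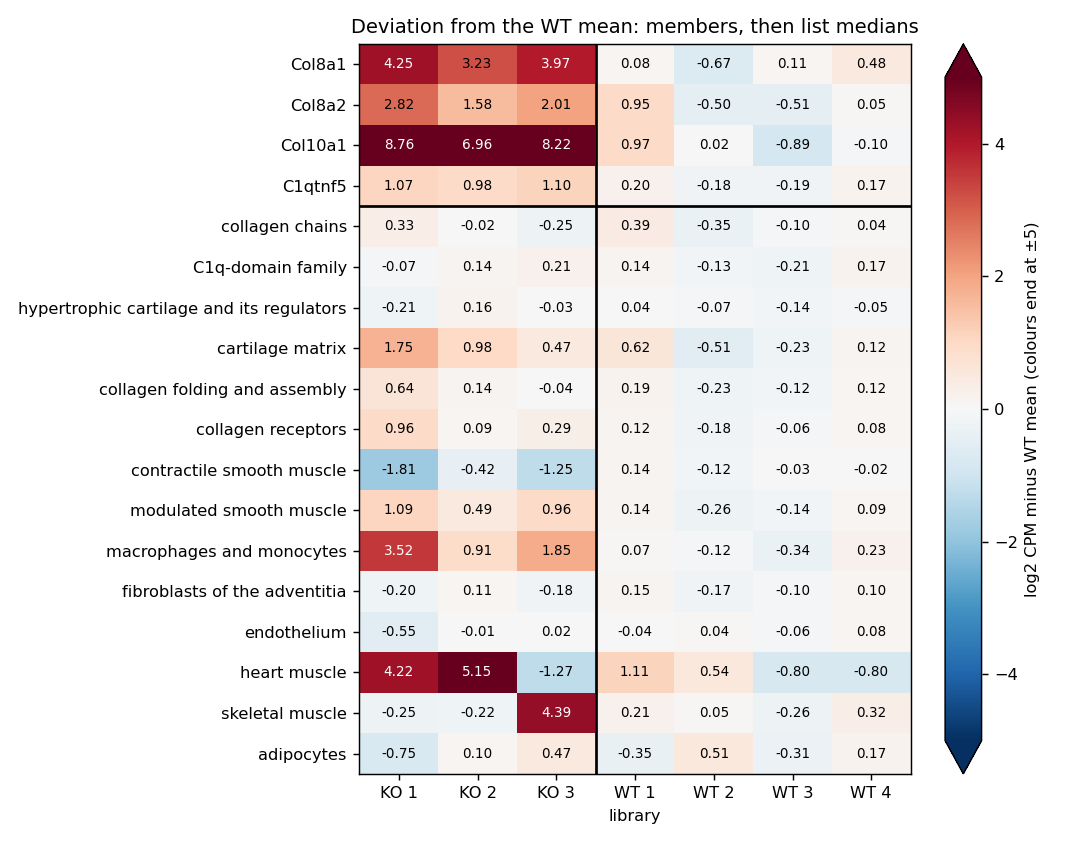
Deviation of log2 CPM (prior count 2) from the WT mean in each library, for the 4 members above the line and as the median of each gene list below it. The members are positive in all 3 KO libraries. So are the macrophage row (3.52, 0.91 and 1.85) and the cartilage matrix, collagen receptor and modulated smooth muscle rows. The heart muscle row changes sign between KO replicates 2 and 3 (5.15 and -1.27).

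The fold changes of the members kept their sign and moved by less than the spread between libraries under each of the 16 alternatives run. *Col8a1* ran from 3.59 to 4.11, *Col8a2* from 1.68 to 2.57, *Col10a1* from 7.71 to 8.65 and *C1qtnf5* from 0.98 to 1.14 on the log2 scale.

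**Figure D5:**
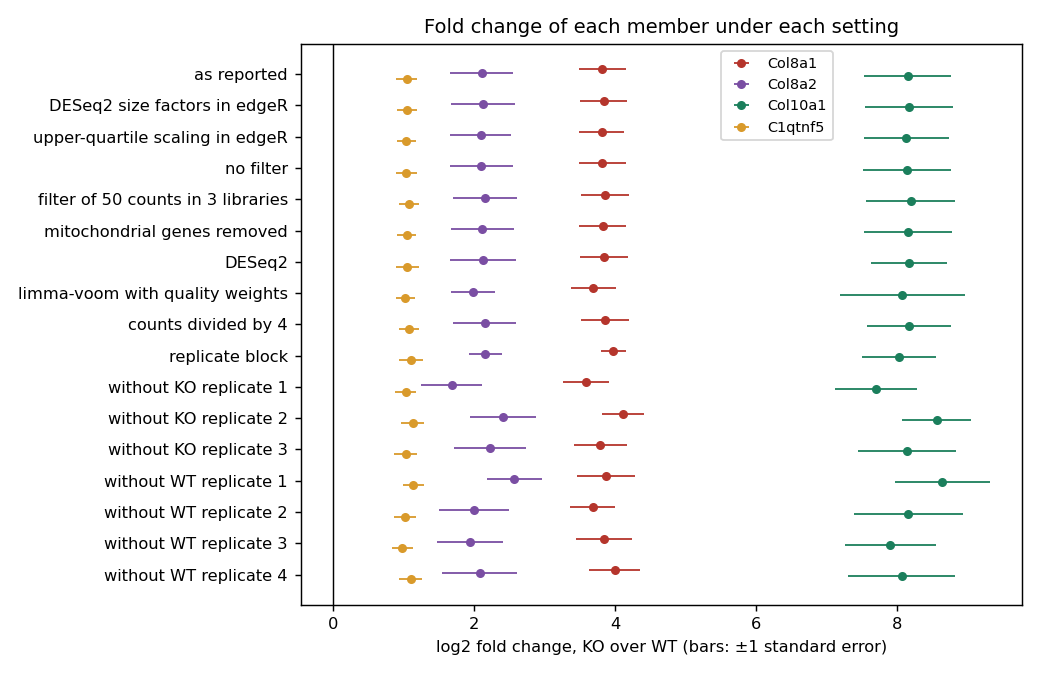
Log2 fold change of each member, KO over WT, with bars of 1 standard error on either side, for the reported fit and 16 alternatives. Within each alternative the order *Col10a1*, *Col8a1*, *Col8a2*, *C1qtnf5* from high to low holds.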

How the data were processed

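Per the labels' protocols, aorta RNA (3 KO and 4 WT libraries) was isolated in Trizol, and 2 µg went into each SMARTER mRNA-Seq library. The authors deposited whole-number estimated counts per Ensembl gene, not scaled between libraries, so rounding left them unchanged. The submitters' processing notes name GRCm38 and mm10. Aligner, counter, gene annotation and strand setting: not given in the sources used here. Values from 8 to 40 were 1.25 to 1.38 times as frequent at multiples of 4 as at their neighbours, so what a count of 1 stands for is unknown and no counting interval is given.

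Symbols and positions came from GENCODE M21, which named 47224 of the 47729 identifiers. Genes were filtered with filterByExpr (minimum count 10), scaled by TMM and tested with edgeR 4.0.16 (quasi-likelihood, Benjamini-Hochberg adjusted p under 0.05) in R 4.3.3. DESeq2 1.42.0 and limma 3.58.1 (voom with quality weights) were alternatives. RPKM is TMM-scaled CPM per kilobase of exon union. Single values were compared with an exact 2-sided permutation test over the 35 possible groupings of 3 and 4, whose smallest p is 0.0286.

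The members and the 14 gene lists (305 genes) were chosen with earlier results of these data known. Genes set to be named were the members, *Mmp19*, genes overlapping a member, and the 5 genes nearest in profile to *Col8a1* and to *Col10a1*. The 4 tested genes of each list with the smallest edgeR p, and 8 defining markers of cell types, were added to these. Not all of the genes so set are given in the text. Any other gene was named after its values had been seen. No pair of libraries was a duplicate: the lowest mean chi-square per gene over the 21 pairs was 22.7.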

Additional observations from a re-analysis of the deposited data

Results flagged for a closer look

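Of 100 gene and group combinations tested for a sample far from the other 3 WT libraries, 2 were marked, where chance marks about 1 in 20. *Mmp13* was lowest in WT replicate 2, at 0.253 CPM, with the other WT libraries between 0.462 and 0.473 CPM. *Tnni2*, a troponin of fast skeletal muscle, was lowest in WT replicate 2, at 0.0704 CPM, with the other WT libraries between 0.235 and 0.258 CPM. Both genes are near the lower end of what was counted, and neither is a member.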

How the results depend on the processing

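The fold change of each member kept its sign under the alternatives run. Of the list medians, which were not tested, 6 changed sign under at least 1 alternative. The collagen chains (-0.06) reached 0.10 without WT replicate 1, the C1q-domain family (0.01) reached -0.18 with no filter, and the hypertrophic cartilage list (-0.09) reached 0.10 without KO replicate 1. The adventitial fibroblasts (-0.10) came to 0.00 without WT replicate 1, and adipocytes (0.03) ran from -0.21 to 0.25. The skeletal muscle median, 2.92, was -0.33 without KO replicate 3. The number of genes called, 3 as reported, was 0 with no filter, 7 with a filter of 50 counts in 3 libraries, 7 with counts divided by 4, 7 with limma-voom and 1606 with DESeq2. With 1 library left out it ran from 0 to 1029. It was 1029 without KO replicate 2 and 0 without each of the other 6 libraries, so the calls of *Col8a1* and *Col10a1* were lost there too. The cause was not tested. With the longest transcript as length, *Col8a1* had 66.7 RPKM in KO and 4.72 RPKM in WT, and *C1qtnf5* 23.6 RPKM in KO and 11.5 RPKM in WT. With the replicate number as a block, 0 genes were called, and the log2 fold changes of *Col8a1*, *Col8a2*, *Col10a1* and *C1qtnf5* were 3.97, 2.16, 8.03 and 1.11. Same-numbered libraries deviated together with correlations of 0.0545, 0.0691 and 0.340, and KO replicate 2 did not correlate best with its own number, so the numbers were not taken as pairs. *Col10a1* in WT rests on 8 to 31 counts, which limits the size of its fold change.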
